A study of Mus musculus with 34 samples.

Results

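The mesenchymal line NaJa-G was compared with the epithelial line NaJa-D in the absence of the drug, over all genes of the deposited count table. The comparison rests on 11 of the 34 libraries of the series, chosen by their titles: 6 libraries of NaJa-D and 5 of NaJa-G, all treated with the solvent DMSO and taken at day 1 or day 5. There were 3 libraries of each line at day 1, 3 of NaJa-D at day 5 and 2 of NaJa-G at day 5. The difference was taken between line means, each the average of the day 1 and the day 5 group mean, for all 14107 genes.

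Both lines are mouse colorectal cancer cell lines of the strain C57BL/6N with the genotype VillinCreERT2::BrafV600E/+::Trp53R172H::APCdel. They therefore share the V600E form of Braf, the R172H form of Trp53 and the loss of Apc, recombined by a Cre enzyme that is driven by the promoter of the intestinal gene Villin and switched on with 4-hydroxytamoxifen. Donor colon organoids with these alleles were transplanted into the colon of wild-type recipients, and each line grew out of the peritoneal lavage of 1 recipient. The study describes both as having lost the wild-type Trp53 allele, and their host cells as lost with passage. Each line is thus a single isolate, so that what belongs to being mesenchymal and what belongs to the isolate cannot be told apart. The libraries of a group were cultures plated together in medium with serum, and the p-values measure only the spread between these cultures. The series also holds a line from another recipient, NaJa-F, and cells of all lines under 0.5 µM encorafenib, which inhibits the kinase made from the Braf V600E allele.

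In an epithelium, neighbouring cells are held together by tight junctions, adherens junctions and desmosomes, and rest on a basement membrane of laminins and type IV collagen. In an epithelial to mesenchymal transition, transcription factors of the ZEB, SNAIL and TWIST families reduce the expression of junction genes, in part by binding E-boxes in their promoters, while genes for the intermediate filament protein vimentin, interstitial matrix and contractile proteins are expressed more. In colorectal cancer this programme is known from invasive and mesenchymal tumours, and intermediate states that keep some epithelial genes are common.

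Total counts ranged from 46007050 to 61028464 per library in NaJa-D and from 56441590 to 80121299 in NaJa-G. Values are given as CPM, the counts of a gene scaled to a library of 1000000 counts, scaled with TMM factors between 0.876 and 1.06, and differences as log2 fold changes, NaJa-G minus NaJa-D, with their standard error (SE). A gene said to rise or fall by a value did so on this log2 scale. By its title 1 library is NaJa-D DMSO day 1 replicate 3, whereas another label names its cell line as NaJa-G. Across genes, r of its log2 CPM with both further libraries of its titled group was 0.995 and with the NaJa-G day 1 libraries between 0.917 and 0.920, and it was kept as NaJa-D. Of the genes of the engineered alleles, Trp53 was higher in NaJa-G by 0.48 ± 0.04 and Apc by 0.37 ± 0.06, and Braf at 0.22 ± 0.08 was not called (adjusted p = 0.010). These values cover all transcripts of a gene, since the counts do not separate the alleles.

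A gene was called when its adjusted p in limma was below 0.01. The lines differed in 9515 genes, 67.4% of the genes tested, with 4702 higher and 4813 lower in NaJa-G. Scaling by library size only gave 9792 genes, 5864 of them higher and 3928 lower. Without the library with the conflicting label 9161 genes were called. Most differences were small, with a median absolute log2 fold change of 0.41 over all genes and 0.62 over called genes. A log2 fold change of at least 2 was reached by 555 genes that were higher and 705 that were lower, and one of at least 4 by 168 and 105 genes. In 5989 genes, 42.5% of those tested, no library of one line lay within the range of the other. Since the median over all genes was 0.01, the lists below are read against 33.3% of genes called higher and 34.1% called lower. The lists are gene families, pathways and cell type markers, and all of their members found in the table are counted.

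The listed genes of epithelial junctions were almost uniformly lower in NaJa-G. Of the 35 genes of this list, 33 fell, against 34.1% of all genes, 1 rose and 1 did not pass the test, with a median log2 fold change of -3.12. The list does not hold all claudins, and Cldn2, which rose as given below, is outside it. All 33 genes that fell were also without overlap between libraries of NaJa-D and NaJa-G, and 33 fell without the library with the conflicting label. Such genes without overlap and lower in NaJa-G made up 21.9% of all genes. The summed level of the list was 10573 to 12601 CPM in the NaJa-D libraries and 2415 to 2777 CPM in those of NaJa-G. The promoters of 4 of these genes and of the vimentin gene are printed here because ZEB and SNAIL factors, which differed between the lines as given further on, are known to bind the E-box CAGGTG. These 4 genes were chosen for holding at least 2 matches. The sequences are from RefSeq on build GRCm38.p6, run from 250 bases before to 50 after the start of the gene in 5′ to 3′ direction on the strand of the gene, and capitals mark CAGGTG or its reverse complement CACCTG.
Epcam, chr17:87635729-87636028, plus strand: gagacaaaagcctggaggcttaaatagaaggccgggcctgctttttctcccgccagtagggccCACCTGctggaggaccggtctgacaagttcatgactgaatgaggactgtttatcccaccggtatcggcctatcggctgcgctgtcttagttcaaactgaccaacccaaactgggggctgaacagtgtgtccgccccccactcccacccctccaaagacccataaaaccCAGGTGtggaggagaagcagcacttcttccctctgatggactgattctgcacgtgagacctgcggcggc
Cldn4, chr5:134946885-134947184, minus strand: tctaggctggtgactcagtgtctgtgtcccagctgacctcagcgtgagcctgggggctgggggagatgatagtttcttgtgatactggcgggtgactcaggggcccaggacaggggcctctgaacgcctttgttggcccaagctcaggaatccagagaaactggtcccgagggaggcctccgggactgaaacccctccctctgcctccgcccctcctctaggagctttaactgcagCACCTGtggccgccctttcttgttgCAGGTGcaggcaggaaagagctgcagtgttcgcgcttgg
Ap1m2, chr9:21312284-21312583, minus strand: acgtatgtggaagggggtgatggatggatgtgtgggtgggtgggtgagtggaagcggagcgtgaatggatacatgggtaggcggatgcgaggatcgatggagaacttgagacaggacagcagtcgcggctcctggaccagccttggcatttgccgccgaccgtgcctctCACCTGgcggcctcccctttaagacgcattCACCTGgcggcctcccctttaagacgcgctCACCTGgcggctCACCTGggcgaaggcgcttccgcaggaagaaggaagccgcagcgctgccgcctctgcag
Rab25, chr3:88548230-88548529, minus strand: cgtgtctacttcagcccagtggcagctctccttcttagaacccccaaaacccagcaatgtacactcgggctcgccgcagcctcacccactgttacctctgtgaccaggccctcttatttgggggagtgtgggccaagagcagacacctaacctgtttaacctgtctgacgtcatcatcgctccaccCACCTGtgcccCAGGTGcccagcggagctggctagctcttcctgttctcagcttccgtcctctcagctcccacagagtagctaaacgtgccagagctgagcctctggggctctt
Vim, chr2:13574061-13574360, plus strand: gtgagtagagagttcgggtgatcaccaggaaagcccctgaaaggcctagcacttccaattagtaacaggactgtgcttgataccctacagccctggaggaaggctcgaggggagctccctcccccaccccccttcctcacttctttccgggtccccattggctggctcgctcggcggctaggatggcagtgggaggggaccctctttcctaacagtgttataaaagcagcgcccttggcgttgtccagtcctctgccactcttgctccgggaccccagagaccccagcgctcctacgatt

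In the Epcam promoter the E-boxes begin 187 and 19 bases before the start, in that of Cldn4 14 bases before and 11 after it, in that of Ap1m2 81, 51, 21 and 9 bases before it, and in that of Rab25 64 and 53 bases before it. The windows of 4 genes that rose were searched, too: those of Vim, Fbln2 and Acta2 hold 0 such matches, and that of Sparc holds 1, which begins 1 base before the start. The junction genes printed above were chosen for holding matches, so these windows cannot be compared with theirs. By the shares below, most promoters of any class hold no match. A promoter was found for 10225 of the 14107 genes, and 17.6% of them held CAGGTG on either strand, as did 20.2% of all 32851 promoters of the RefSeq table. Of the 21 junction genes with a promoter, 14 held it (66.7%). Among called genes the share was 37.7% of 69 promoters with a log2 fold change of -4 or less and 35.1% of 407 between -4 and -2. It was 19.6% between -1 and 0 and was 13.3% between 0 and 1, and then 17.8% between 2 and 4 and 21.4% of 117 promoters at 4 or more. Of other E-boxes, CACGTG was in 2.90% and 9.40% and CAGCTG in 21.7% and 16.2% of the promoters in the lowest and the highest class. Other motifs were also more frequent in the lowest class: TGANTCA, the letters of AP-1 sites, was in 18.8% of the lowest and 8.55% of the highest class, in 5.26% of all matched genes and in 23.8% of the junction genes, and GGAATG, the letters of TEAD sites, in 21.7% and 13.7% of these classes. CAGGTG was thus not the only motif with such a difference. The E-boxes share the frame CANNTG but no match can count for more than 1 of them. In promoters with fewer than 10 CpG dinucleotides, CAGGTG was in 31.9% of 204 genes that were lower by 2 or more and in 16.9% of 178 that were higher by 2 or more, against 20.6% of all 1847. For TGANTCA the shares were 23.0%, 12.9% and 13.05%. The match is a description of letters in a window, the classes were made from the fold changes themselves, and no test was applied.

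**Figure D1:**
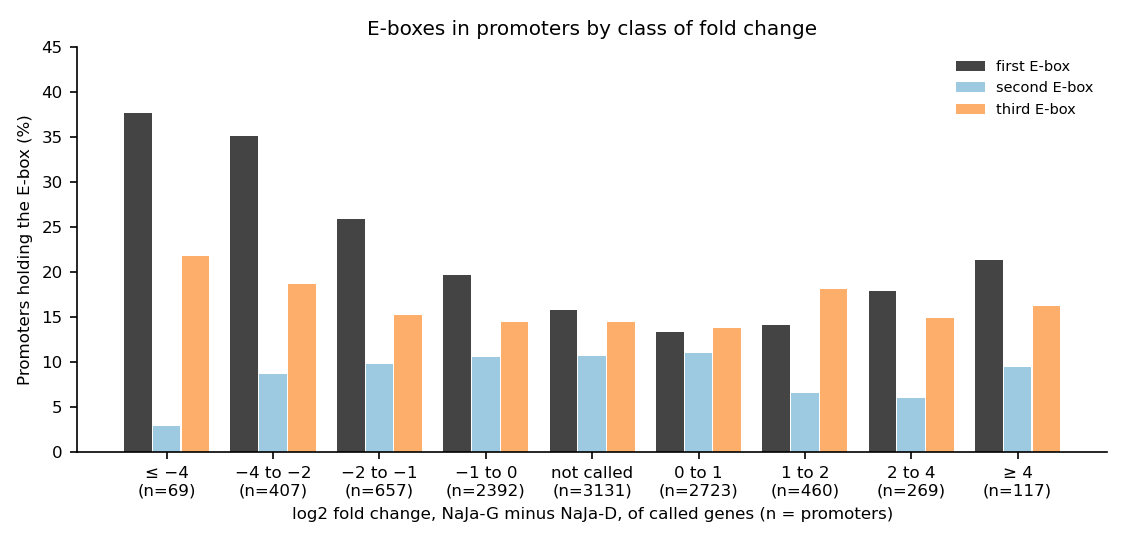
Share of promoters (%) that hold an E-box on either strand, by class of log2 fold change between untreated NaJa-G and NaJa-D; the first E-box is CAGGTG, the second CACGTG and the third CAGCTG, and n is the number of promoters. The first E-box is in 37.7% of promoters in the class at -4 or less and in 13.3% in the class from 0 to 1, and the other E-boxes stay between 2.90% and 21.7%.

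Claudins seal the tight junction, and the largest difference in CPM among junction genes was that of Cldn4. Its lowest, median and highest CPM were 1633, 2220.2 and 3036 in NaJa-D, and the NaJa-G values were 106, 104 and 96.6 (day 1) and 68.1 and 79.1 (day 5). All NaJa-G libraries lay far below all NaJa-D libraries, with a log2 fold change of -4.65 ± 0.06 (adjusted p = 1.5e-30). Cldn3 was at 1098 to 1713 CPM in NaJa-D and 52.4 to 95.2 CPM in NaJa-G (-4.26 ± 0.14), and Cldn7 at 414 to 553 and 34.9 to 40.3 CPM (-3.69 ± 0.06). Of 11 claudins 10 fell, with a median of -2.86. The exception was Cldn2, which encodes a pore-forming claudin of leaky epithelia: it was at 0.34, 1.04 and 1.82 CPM in NaJa-D and rose to 20.7, 21.2 and 21.8 (day 1) and 22.3 and 21.8 (day 5) in NaJa-G (4.64 ± 0.11). Occludin, encoded by Ocln, is another strand protein of the tight junction and fell by 3.76 ± 0.07, from 86.7 to 118 to 6.72 to 8.82 CPM, and the scaffold gene Tjp3 fell by 4.54 ± 0.25.

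Epcam, which encodes an adhesion molecule of simple epithelia, showed the same separation. Its lowest, median and highest CPM in NaJa-D were 930.5, 1073 and 1177, against 86.1, 93.4 and 91.1 (day 1) and 67.3 and 65.1 (day 5) in NaJa-G (-3.78 ± 0.05, adjusted p = 6.2e-30). The matriptase gene St14, a membrane protease of epithelial cells, and Spint1, which encodes its inhibitor, both fell, with log2 fold changes of -4.0 ± 0.07 and -3.94 ± 0.06. Ap1m2, a subunit of the sorting adaptor that directs proteins to the basolateral membrane, fell by 3.92 ± 0.06, and Rab25, a GTPase of apical recycling, fell by 3.20 ± 0.09. Cdh1, which encodes E-cadherin, changed much less: it was at 1137, 1409 and 1696 CPM in NaJa-D and at 557, 502 and 494 (day 1) and 578 and 584 (day 5) in NaJa-G. The lines did not overlap, but all NaJa-G libraries kept at least 494 CPM, and the log2 fold change was -1.37 ± 0.05. The desmosomal cadherin gene Dsg2 fell by 3.17 ± 0.06. In contrast Dsp, which encodes the desmosomal plaque protein desmoplakin, was the only gene of the junction list that rose (0.30 ± 0.06). The rise of Dsp came from day 5, with 0.84, while at day 1 alone the difference was -0.23. The cadherin gene Cdh17 of the intestinal epithelium did not pass the test (0.05 ± 0.06).

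Keratins form the intermediate filaments of epithelial cells, and most of them fell. Of 9 keratins 7 fell and 1 rose, with a median of -1.31. Krt8 and Krt19 had log2 fold changes of only -0.53 ± 0.07 and -0.48 ± 0.07, and Krt18 had 0.00 ± 0.07 with overlapping libraries, from 807 to 1188 CPM in NaJa-D and from 684 to 1531 CPM in NaJa-G. Krt7, a keratin of ducts that the adult colon expresses little, fell from 1811 to 2053 CPM to 304 to 597 CPM (-2.17 ± 0.06). Krt17, a keratin of basal and stressed epithelium, fell further (-3.76 ± 0.39). Krt4, a keratin of stratified epithelium that was named for its fold change, was at 116, 145 and 183 CPM in NaJa-D and at 2.41, 2.3 and 2.08 (day 1) and 2.53 and 2.29 (day 5) in NaJa-G (-5.97 ± 0.11). Krt23, which is expressed in some colorectal cancers, was the keratin that rose, from 0.0485 to 0.232 CPM to 2.13 to 2.77 CPM (4.34 ± 0.25).

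Transcription and splicing factors that maintain the epithelial state fell as a group. Of 16 genes, 12 fell, 2 rose and 2 did not pass the test, with a median of -1.62. Ovol1, a zinc finger factor that restrains ZEB1, was at 33.3, 40.6 and 43.5 CPM in NaJa-D and at 2.43, 2.69 and 2.08 (day 1) and 2.14 and 1.61 (day 5) in NaJa-G (-4.22 ± 0.12). Grhl2, a factor that activates junction genes, was at 65.4, 69.6 and 75.96 CPM in NaJa-D and at 7.08, 8.0 and 7.83 (day 1) and 4.97 and 5.97 (day 5) in NaJa-G (-3.44 ± 0.05). Both genes were separated in all libraries. Esrp1, which directs epithelial splicing, fell by 3.20 ± 0.04, and Elf3, an ETS factor of gut epithelium, fell by 2.45 ± 0.07. The Foxa2 gene, which encodes a pioneer factor of endoderm, went the other way: it was at 0.25, 0.318 and 0.516 CPM in NaJa-D and at 5.29, 4.85 and 4.52 (day 1) and 5.94 and 7.76 (day 5) in NaJa-G (4.02 ± 0.19). Klf5, a factor of crypt cells, was higher by 0.39 ± 0.07 with overlapping libraries.

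**Figure D2:**
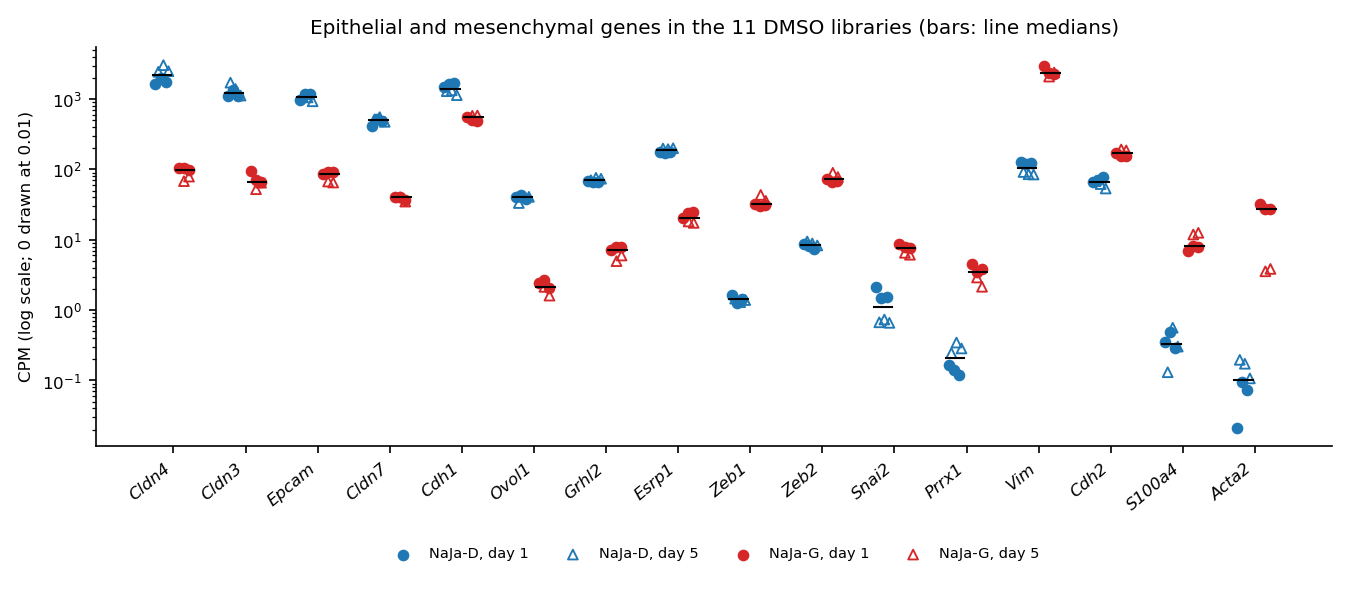
CPM on a log scale (values of 0 would be drawn at 0.01) of epithelial and mesenchymal genes in the 11 untreated libraries, circles for day 1, triangles for day 5 and bars for the median of each line. Cldn4 to Esrp1 lie lower and Zeb1 to Acta2 lie higher in all NaJa-G libraries, and Acta2 of NaJa-G is near 30 CPM at day 1 and under 4 CPM at day 5. The genes drawn are a selection. Members of the same lists that went the other way, such as Dsp, Foxa2, Snai3 and Fn1, are not drawn.

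Factors known to drive the mesenchymal state rose. Of 19 such genes 15 rose and 4 fell, with a median of 1.44. Zeb1, the zinc finger repressor of epithelial genes, was at 1.27, 1.42 and 1.65 CPM in NaJa-D and at 31.95, 30.2 and 30.8 (day 1) and 43.4 and 35.7 (day 5) in NaJa-G. The lines were far apart in all libraries (4.61 ± 0.11, adjusted p = 1.4e-24). Its paralogue Zeb2 was at 7.33, 8.53 and 9.46 CPM in NaJa-D and at 72.3, 66.2 and 68.6 (day 1) and 89.6 and 77.98 (day 5) in NaJa-G (3.16 ± 0.06). The SNAIL family was divided: Snai2 rose by 2.72 ± 0.11 and Snai1 by 2.27 ± 0.20, but Snai3 fell from 11.02 to 13.7 CPM to 1.39 to 3.17 CPM (-2.57 ± 0.11). Twist1, a basic helix-loop-helix factor of mesoderm, was already at 14.8 to 21.7 CPM in NaJa-D and rose to 27.8 to 40.5 CPM (0.93 ± 0.06).

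Homeobox and forkhead factors of mesenchyme were among the genes that rose most within the group. Prrx1, a homeobox factor of limb and connective tissue, was at 0.121, 0.206 and 0.346 CPM in NaJa-D and at 4.54, 3.47 and 3.89 (day 1) and 2.91 and 2.15 (day 5) in NaJa-G (3.87 ± 0.20). Foxf1 and Foxf2, which act in the mesenchyme of the gut wall, rose by 4.31 ± 0.19 and 3.58 ± 0.10, and Foxf2 reached 38.5 to 49.03 CPM. Msx2, a homeobox factor downstream of BMP signals, fell from 10.2 to 19.8 CPM to 2.09 to 3.92 CPM (-2.27 ± 0.08). In the Sox family, Sox2, a stem cell factor of the foregut and the nervous system, rose from 4.22 to 5.78 CPM to 29.8 to 40.3 CPM (2.75 ± 0.09), and Sox17, an endoderm factor, fell from 1.3 to 5.48 CPM to 0.0277 to 0.0536 CPM (-5.69 ± 0.42).

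Cytoskeletal and adhesion genes of mesenchymal cells rose in 20 of 24 cases, with 3 that fell and a median of 1.44. Vim, whose promoter is printed above, was at 84.7, 105 and 127 CPM in NaJa-D and at 2930.0, 2323 and 2255 (day 1) and 2087 and 2383 (day 5) in NaJa-G (4.50 ± 0.08, adjusted p = 1.4e-27). In mean CPM it was the gene with the largest increase of all called genes. Cdh2, which encodes N-cadherin, was not absent from NaJa-D, with 53.5, 67.1 and 78.6 CPM, and was at 170.1, 157 and 153 (day 1) and 192 and 186 (day 5) in NaJa-G (1.40 ± 0.06). P-cadherin, encoded by Cdh3, fell by 2.64 ± 0.11. Lgals1, which encodes a galectin of stromal cells, was higher by 1.88 ± 0.09, with 1012 to 1811 CPM in NaJa-G. S100a4, a calcium-binding protein of motile cells, was higher by 4.89 ± 0.28, but 51.7% of its exon length overlaps another gene on the same strand, so that its counts are uncertain.

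Acta2, which encodes smooth muscle actin, was near absent in NaJa-D and depended on the day in NaJa-G. It was at 0.0209, 0.10 and 0.196 CPM in NaJa-D and at 32.5, 27.5 and 27.2 (day 1) and 3.56 and 3.85 (day 5) in NaJa-G. All NaJa-G libraries were higher (6.66 ± 0.31), and the day 1 values of NaJa-G were far above those of day 5. The line difference of Acta2 was 8.82 at day 1 and 4.51 at day 5 (difference -4.30, adjusted p = 9.5e-06). Myl9, a myosin light chain, was higher by 5.33 ± 0.36. Fn1 and Cd44, which are often counted among mesenchymal genes, fell: Fn1, which encodes fibronectin, was at 8589, 12258 and 14884 CPM in NaJa-D and at 4618, 4285 and 4216 (day 1) and 5171 and 5134 (day 5) in NaJa-G (-1.31 ± 0.06), and the hyaluronan receptor gene Cd44 fell by 0.79 ± 0.04.

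Genes of the extracellular matrix moved in both directions. Of 9 laminins 6 fell and 2 rose, with a median of -0.56. The genes Lama3 and Lamb3 encode chains of laminin-332, the anchor of epithelia to the basement membrane. Lama3 was at 396, 757 and 1192 CPM in NaJa-D and at 65.6, 70.3 and 71.4 (day 1) and 41.4 and 37.2 (day 5) in NaJa-G (-3.74 ± 0.06). Lamb3 fell by 1.78 ± 0.06. No library of the lines overlapped for either gene, although NaJa-D itself held less of each at day 5 than at day 1. Itgb4, the integrin chain that binds laminin-332 in hemidesmosomes, fell from 594 to 1056 CPM to 158 to 208 CPM (-2.13 ± 0.06), and Itgb6, an epithelial integrin chain that activates TGF-β, fell by 2.29 ± 0.06. Col4a3 and Col4a4, type IV collagen chains of specialised basement membranes that lie side by side in the genome, had log2 fold changes of -2.48 ± 0.13 and -2.78 ± 0.09.

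Collagens of types I and III rose, but the summed level of all collagens was not higher in NaJa-G. Of all 26 collagens 13 rose and 10 fell, with a median of 0.65. Their sum was 2306 to 2858 CPM in NaJa-D and 1876 to 2698 CPM in NaJa-G, with overlapping libraries. Col1a1, a chain of type I collagen, was at 0.946, 1.14 and 1.44 CPM in NaJa-D and at 50.9, 40.1 and 35.3 (day 1) and 9.92 and 12.1 (day 5) in NaJa-G (4.20 ± 0.17). Col1a2 rose by 5.55 ± 0.30 and Col3a1, of type III collagen, by 4.65 ± 0.29, again with higher NaJa-G values at day 1 (3.31 to 17.7 and 1.07 to 4.55 CPM over both days). Col6a1, of the microfibrillar type VI collagen, was at 0.0485, 0.277 and 0.524 CPM in NaJa-D and at 16.1, 13.97 and 14.8 (day 1) and 24.4 and 26.3 (day 5) in NaJa-G (6.24 ± 0.26), with its higher values at day 5. Adamts2, the enzyme that removes the amino-terminal propeptide of type I and type III collagen, was at most 0.0818 CPM in NaJa-D and at 7.35, 7.58 and 8.32 (day 1) and 9.97 and 9.16 (day 5) in NaJa-G (7.10 ± 0.35). Lox, which crosslinks collagen and elastin, had 0 to 0.0728 CPM in NaJa-D and 5.64, 4.5 and 4.71 (day 1) and 1.12 and 0.859 (day 5) in NaJa-G (6.36 ± 0.47), and Loxl2 of the same family was higher by 4.20 ± 0.23.

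Glycoproteins and crosslinkers of the matrix rose in 25 of 33 cases, with 5 that fell and a median of 1.66. Sparc, a collagen-binding protein of remodelled tissue, was at 0.728, 1.01 and 1.47 CPM in NaJa-D and at 82.8, 74.5 and 72.1 (day 1) and 83.3 and 90.5 (day 5) in NaJa-G (6.28 ± 0.15, adjusted p = 1.1e-24). Fbln2, which encodes fibulin-2, had the largest rise in mean CPM of the group, with CPM values of 548, 494 and 486 (day 1) and 373 and 406 (day 5) against 14.4, 22.1 and 32.9 CPM in NaJa-D (4.37 ± 0.06). Both were separated in all libraries. Postn, a periostin of stroma, and Fbn1, a fibrillin, were higher by 3.59 ± 0.41 and 2.96 ± 0.23. Thbs1, which encodes thrombospondin-1, fell from 3971, 4517 and 5036 CPM in NaJa-D to 648, 643 and 604 (day 1) and 1182 and 1136 (day 5) in NaJa-G (-2.41 ± 0.05).

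**Figure D3:**
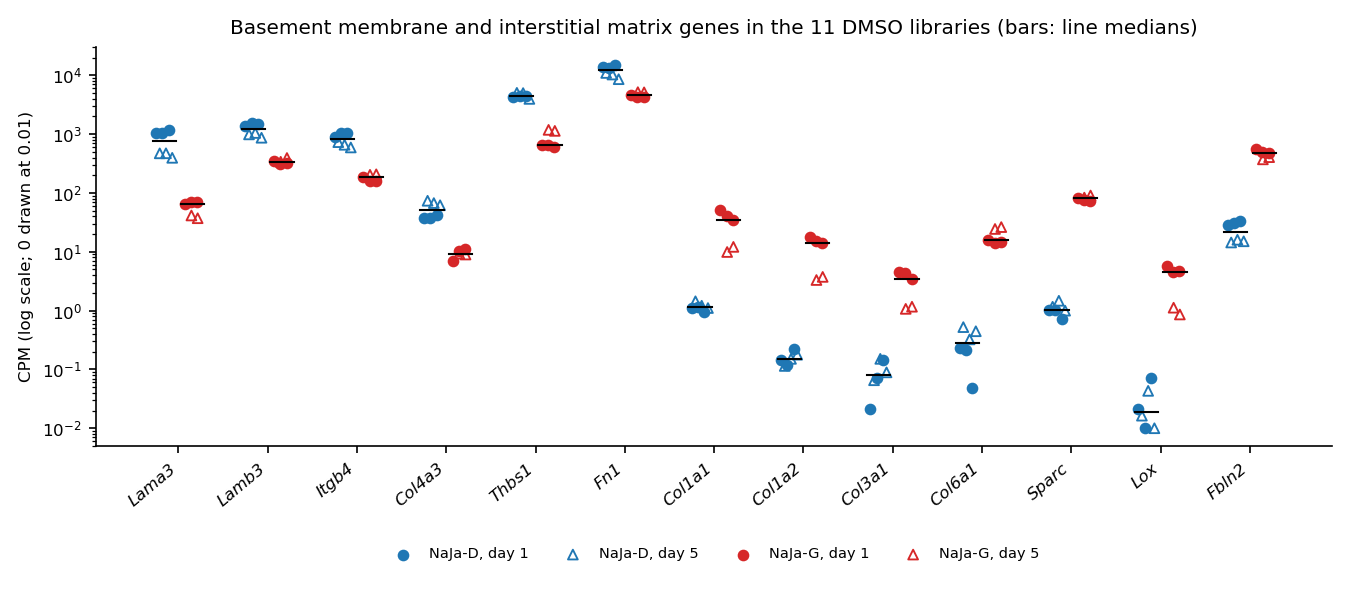
CPM on a log scale (0 drawn at 0.01) of basement membrane, provisional and interstitial matrix genes in the 11 untreated libraries, circles for day 1, triangles for day 5 and bars for line medians. Lama3 to Fn1 lie lower and Col1a1 to Fbln2 lie higher in all NaJa-G libraries. The genes drawn are a selection of their lists.

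Integrins as a family had no common direction, with 7 of 18 higher, 5 lower and a median of 0.04. The vitronectin receptor chain Itgb3 rose by 2.87 ± 0.13 and Itgb8, which also activates TGF-β, by 3.93 ± 0.25. Matrix proteases and inhibitors were likewise mixed (14 of 30 higher, 11 lower, median 0.15). Mmp14, a membrane-anchored collagenase, fell from 335 to 408 to 90.01 to 113 CPM (-1.91 ± 0.05), the related Mmp15 fell by 4.45 ± 0.14, and the urokinase gene Plau fell by 2.68 ± 0.07. The protease inhibitor gene Serpine2 fell from 80.3 to 104 CPM to 4.01 to 5.26 CPM (-4.33 ± 0.08), and Timp1, an inhibitor of metalloproteases, rose by 1.47 ± 0.07.

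Transcription factors of the intestine had no common direction. Of 11 genes tested 5 rose, 2 fell and 4 did not pass the test, with a median of 0.32. Cdx2, the homeobox factor of hindgut identity, was at 20.5, 22.2 and 24.6 CPM in NaJa-D and at 9.88, 7.86 and 8.3 (day 1) and 8.93 and 8.92 (day 5) in NaJa-G (-1.35 ± 0.08), and Sox9, a crypt factor, fell by 1.73 ± 0.08. In contrast Hnf4a, a nuclear receptor of differentiated gut and liver epithelium, was nearly absent in NaJa-D, with 0.121, 0.195 and 0.454 CPM, and was at 5.95, 4.22 and 5.07 (day 1) and 4.0 and 3.95 (day 5) in NaJa-G (4.37 ± 0.20). Gata4, a factor of proximal intestine that adult colon does not normally express, rose by 3.16 ± 0.14. Of 19 products of colon epithelium 11 fell and 5 rose, with a median of -0.91. The villin gene Vil1, whose promoter drives the Cre transgene, fell from 6.19 to 14.04 CPM to 0.442 to 0.942 CPM (-3.73 ± 0.10). The colon antigen gene Gpa33 fell by 3.83 ± 0.06 and the water channel gene Aqp8 fell by 3.18 ± 0.11, whereas Cdhr2, a protocadherin of the brush border, rose by 1.72 ± 0.06.

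Hox genes record position along the body axis, and few of them differed widely. Of 22 Hox genes 8 rose, 5 fell and 9 did not pass the test. The posterior genes Hoxa11 and Hoxa13 had log2 fold changes of -2.81 ± 0.09 and -3.51 ± 0.18. Hoxa11 was at 20.8 to 25.9 CPM in NaJa-D and 3.01 to 3.93 CPM in NaJa-G, and 35.0% of its exon length overlaps an antisense gene, from which its counts could not be separated without strand. Hoxb8 rose by 1.16 ± 0.08.

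Feedback and stem cell targets of WNT signalling rose more often than they fell. Both lines carry inactivated Apc, the scaffold of the complex that degrades β-catenin. Of 24 genes 15 rose and 6 fell, with a median of 0.42. Nkd1, a feedback inhibitor, was at 0.606, 0.952 and 1.49 CPM in NaJa-D and at 97.9, 78.2 and 78.2 (day 1) and 160.1 and 203 (day 5) in NaJa-G (7.01 ± 0.18, adjusted p = 9.1e-24). Lef1, a partner of β-catenin on DNA, was at 0.0485, 0.144 and 0.238 CPM in NaJa-D and at 5.8, 5.45 and 5.19 (day 1) and 5.97 and 6.82 (day 5) in NaJa-G (5.49 ± 0.26). Smoc2, a secreted protein of crypt base cells, rose from 11.5 to 17.9 CPM to 293 to 389 CPM (4.57 ± 0.05). All 3 genes were separated in all libraries.

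Lgr5, the receptor that marks intestinal stem cells, was at 0.984, 1.88 and 2.57 CPM in NaJa-D and at 6.5, 7.66 and 7.02 (day 1) and 22.1 and 20.1 (day 5) in NaJa-G (2.82 ± 0.09), and the day 5 values of NaJa-G were above those of day 1. The transcription factor gene Sp5 was higher by 3.36 ± 0.38, and Dkk2, which encodes a WNT antagonist, rose by 2.45 ± 0.05 and reached 245 to 596 CPM. Notum, a secreted enzyme that inactivates WNT ligands, was higher by 2.17 ± 0.13. Its libraries overlapped between the lines over both days together but not within a day, and 38.1% of its exon length lies opposite another gene. Axin2, the most used readout of the pathway, did not pass the test (0.04 ± 0.05): NaJa-D libraries were between 264 and 352 CPM, those of NaJa-G at 217, 223 and 219 (day 1) and 405 and 428 (day 5). The NaJa-G values lay below all NaJa-D values at day 1 and above them at day 5, and the difference was -0.31 and 0.38. Rnf43, a ligase that removes WNT receptors, fell by 0.94 ± 0.05, and the stem cell marker gene Prom1 fell by 3.35 ± 0.09.

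WNT ligands and receptors fell more often than they rose. Of 25 genes 13 fell and 4 rose, with a median of -0.50. Wnt2, a ligand made by stroma, had the largest rise: it was at 0.0469, 0.0681 and 0.194 CPM in NaJa-D and at 14.1, 11.9 and 12.4 (day 1) and 9.57 and 11.7 (day 5) in NaJa-G (7.01 ± 0.31). Wnt4 rose by 1.94 ± 0.10. Wnt7b, an epithelial ligand, fell from 275 to 327 CPM to 52.7 to 101 CPM (-2.11 ± 0.07), and Wnt10a and the receptor gene Fzd10 had log2 fold changes of -4.21 ± 0.29 and -5.31 ± 0.30. Fetal intestinal and YAP target genes had no common direction (9 of 26 higher, 13 lower, median -0.26). Ly6a, the antigen SCA-1 of regenerating epithelium, fell from 2052 to 2923 CPM to 478 to 594 CPM (-2.20 ± 0.06). Ccn2, a standard YAP target, fell by 1.96 ± 0.06.

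Genes of the TGF-β and BMP pathways moved in both directions. Of 40 genes 21 rose and 13 fell, with a median of 0.16. Tgfb2, a TGF-β ligand, was at 2.9, 3.73 and 5.12 CPM in NaJa-D and at 7.77, 7.35 and 6.17 (day 1) and 17.8 and 14.3 (day 5) in NaJa-G (1.52 ± 0.10), more so at day 5. Ltbp1, which stores latent TGF-β in the matrix, rose from 8.91 to 13.4 CPM to 74.2 to 106 CPM (3.0 ± 0.06). Bmp7, a BMP ligand, was at 0.376, 0.514 and 0.563 CPM in NaJa-D and at 19.6, 15.6 and 15.1 (day 1) and 8.33 and 6.62 (day 5) in NaJa-G (4.47 ± 0.20), and the BMP antagonist Grem1 rose by 4.70 ± 0.46. Fstl1, a secreted modulator of BMP signals, had 0 to 0.151 CPM in NaJa-D and 3.26 to 7.98 CPM in NaJa-G (6.30 ± 0.31). The TGF-β receptor gene Tgfbr2 fell by 0.55 ± 0.06 and the activin receptor gene Acvr1b fell by 2.74 ± 0.07.

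Receptor tyrosine kinases moved in both directions. Of 35 tested 14 rose and 18 fell, with a median of -0.31. Erbb3, the kinase-impaired partner of the EGF receptor family, was at 184, 209 and 239.8 CPM in NaJa-D and at 13.1, 13.96 and 13.6 (day 1) and 14.8 and 17.3 (day 5) in NaJa-G (-3.84 ± 0.06, adjusted p = 8.1e-29). Egfr and Erbb2 had log2 fold changes of -1.63 ± 0.05 and -1.35 ± 0.06, and Epha1, Mst1r and Ret of -3.85 ± 0.08, -3.45 ± 0.28 and -2.87 ± 0.10. Axl, a receptor for GAS6 and protein S that is linked to drug tolerance, was at 30.6, 39.99 and 48.8 CPM in NaJa-D and at 364, 299 and 294 (day 1) and 294 and 317 (day 5) in NaJa-G (2.99 ± 0.07). The fibroblast growth factor receptor gene Fgfr1 rose from 2.23 to 3.03 to 19.997 to 29.02 CPM (3.17 ± 0.07). The platelet-derived growth factor receptors Pdgfrb and Pdgfra rose by 4.16 ± 0.45 and 1.57 ± 0.10, from a low level: Pdgfrb was at 0 to 0.0838 CPM in NaJa-D and at 0.416 to 1.78 CPM in NaJa-G.

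Of 36 growth factor ligands 17 rose and 11 fell. Pros1, which encodes protein S, rose from 0.305 to 0.754 CPM to 4.22 to 5.32 CPM (3.44 ± 0.15). Pdgfb, a ligand of Pdgfrb, fell from 71.02 to 88.1 CPM to 9.87 to 17.2 CPM (-2.56 ± 0.07).

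Output genes of the ERK pathway, which is driven by mutant BRAF in both lines, were moderately higher in NaJa-G. Of 32 genes 20 rose and 8 fell, with a median of 0.31. Etv5, an ETS factor induced by ERK, was at 25.1, 26.4 and 29.1 CPM in NaJa-D and at 82.03, 70.4 and 68.3 (day 1) and 82.7 and 92.5 (day 5) in NaJa-G (1.58 ± 0.05). The feedback inhibitor genes Spry4 and Spred2 were higher by 1.53 ± 0.08 and 1.10 ± 0.05, and the phosphatase gene Dusp6 by 0.54 ± 0.06. Egr3, an immediate early gene, was higher by 6.24 ± 0.41 at no more than 3.18 CPM. Dusp9, another ERK phosphatase, fell from 53.3 to 80.9 CPM to 11.9 to 25.9 CPM (-1.98 ± 0.07).

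Genes of the cell cycle were slightly higher, with 21 of 30 that rose, 4 that fell and a median of 0.22. The largest difference was 0.80 ± 0.05 for E2f1, a factor of S phase entry. Ccna2, encoding cyclin A, was higher by 0.76 ± 0.05, and the helicase gene Mcm7 fell by 0.70 ± 0.05. Scaling by library size alone raised the median of all genes by 0.12. Of the D-type cyclins, which start the cycle with CDK4 and CDK6, Ccnd2 was at 3.71, 4.24 and 5.86 CPM in NaJa-D and at 229.8, 194 and 189 (day 1) and 305 and 297 (day 5) in NaJa-G (5.81 ± 0.10, adjusted p = 6.6e-28). Ccnd1 was abundant in both lines and higher by 0.61 ± 0.06, whereas Cdk6 fell from 277 to 351 CPM to 96.1 to 128 CPM (-1.38 ± 0.05).

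Class I antigen presentation was lower in NaJa-G in 13 of 21 genes and higher in 6, with a median of -0.49. H2-K1, a classical class I heavy chain, was at 296, 372 and 454 CPM in NaJa-D and at 41.5, 41.8 and 41.95 (day 1) and 32.3 and 37.9 (day 5) in NaJa-G (-3.29 ± 0.06), and H2-D1 fell by 2.09 ± 0.07. Reads of these similar genes may be shared between them. B2m, which encodes the light chain, was higher by 0.38 ± 0.05, with overlapping libraries. The peptide transporter gene Tap2, at no more than 0.929 CPM, fell by 2.78 ± 0.37.

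Interferon signalling and response genes fell in 21 of 35 cases and rose in 8, with a median of -0.40. Only 35 of the 50 listed genes were tested, and the response genes Isg15, Ifit1, Mx1 and Rsad2 are not among them. Usp18, an inhibitor of the interferon receptor that is itself induced by interferon, was at 2.18, 3.05 and 3.78 CPM in NaJa-D and at 0.196, 0.241 and 0.216 (day 1) and 0.401 and 0.249 (day 5) in NaJa-G (-3.45 ± 0.19). Ifit2, Irf7 and the RNA sensor gene Ddx58 had log2 fold changes of -2.44 ± 0.17, -1.66 ± 0.25 and -1.62 ± 0.05. The kinase gene Jak2 and the gene of the adaptor STING, Tmem173, were higher by 1.45 ± 0.04 and 1.97 ± 0.08. Ifitm3, an antiviral membrane protein, stood apart: NaJa-D libraries held at most 2 counts of it, and NaJa-G libraries were at CPM values of 9.25, 8.64 and 8.42 (day 1) and 22.4 and 27.3 (day 5). Its fitted log2 fold change of 9.57 ± 0.49 depends on the prior count, and its relative Ifitm1 was higher by 4.45 ± 0.34.

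Of 32 chemokines and cytokines 9 rose and 15 fell. Cxcl16, a membrane-bound chemokine, fell from 115 to 141 CPM to 14.5 to 24.7 CPM (-2.72 ± 0.05). Cxcl2, which attracts neutrophils, was higher by 3.15 ± 0.26 at up to 3.28 CPM, and Csf1, which supports macrophages, by 1.22 ± 0.04, with 49.1 to 88.4 CPM in NaJa-G. Checkpoint ligands and regulators divided evenly, with 9 of 20 higher and 9 lower. Ulbp1, a stress ligand of the receptor NKG2D, was at 2.3, 4.3 and 5.65 CPM in NaJa-D and at 48.5, 48.9 and 46.4 (day 1) and 46.8 and 39.3 (day 5) in NaJa-G (3.55 ± 0.08). The PD-L2 gene Pdcd1lg2 was higher by 2.87 ± 0.11 and the PD-L1 gene Cd274 by 0.69 ± 0.09. Nt5e, which encodes the adenosine-producing enzyme CD73, was higher by 3.78 ± 0.18. Cd276, of the B7 family, and Cd55, an inhibitor of complement, had log2 fold changes of -1.76 ± 0.06 and -3.42 ± 0.18.

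Genes were named here only if called, without overlap between the lines and with at least 2 log2 CPM in the higher line. The highest fold change of these belonged to Ptgs2, which encodes the prostaglandin synthase COX-2. It was at 0.0628, 0.106 and 0.258 CPM in NaJa-D and at 395, 386 and 393 (day 1) and 276 and 309 (day 5) in NaJa-G (11.40 ± 0.26, adjusted p = 5.5e-25). The metalloprotease gene Adam19 was at 0.0648, 0.0899 and 0.126 CPM in NaJa-D and at 84.3, 85.5 and 84.5 (day 1) and 115 and 102 (day 5) in NaJa-G (9.88 ± 0.23). These genes were near 0 in all NaJa-D libraries and abundant in all NaJa-G libraries. A lack of overlap was a condition for naming them. Flot2, a scaffold of membrane rafts, and Procr, the receptor of protein C, were also near absent from NaJa-D and higher by 7.39 ± 0.27 and 7.11 ± 0.12, with 49.2 to 66.1 and 71.96 to 102 CPM in NaJa-G. At the other end, Plac8, which encodes a cysteine-rich protein, was at 184, 199.5 and 234 CPM in NaJa-D and at 2.11, 1.65 and 2.06 (day 1) and 1.51 and 1.4 (day 5) in NaJa-G (-6.94 ± 0.13). The serpin gene Serpinb11 fell by 6.73 ± 0.14, and Ctse, an aspartic protease of gastric epithelium, fell from 523 to 735 CPM to 11.8 to 14.1 CPM (-5.54 ± 0.06). Prom2, a relative of Prom1, fell by 5.29 ± 0.10, and Cstf2t, a retrogene for a cleavage factor of messenger RNA, fell by 5.27 ± 0.21.

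Enzymes of retinoid and xenobiotic metabolism differed in many members without a common direction. Of 52 genes 24 rose and 20 fell, with a median of 0.20. Aldh1a1, which makes retinoic acid, was at 37.5, 55.3 and 83.5 CPM in NaJa-D and at 505, 461 and 455 (day 1) and 712 and 765 (day 5) in NaJa-G (3.43 ± 0.06). Aldh1a2 of the same function was higher by 4.53 ± 0.15 and the alcohol dehydrogenase gene Adh7 by 5.35 ± 0.20. The glutathione transferase gene Gstm1 rose from 4.55 to 8.47 CPM to 50.7 to 113 CPM (3.55 ± 0.07), where reads may be shared with its close relatives. Rdh10, which makes the retinal that these enzymes use, fell from 786 to 1085 CPM to 125 to 223 CPM (-2.46 ± 0.05), and Cyp1b1, a monooxygenase, fell by 2.53 ± 0.06.

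Genes of cholesterol synthesis fell in 16 of 24 cases and rose in 3, with a median of -0.46. Cyp51, a demethylase of the pathway that lies on chromosome 5, fell from 1719 to 2493 CPM to 304 to 631 CPM (-2.23 ± 0.06). Of the 21 genes of the pathway on other chromosomes, 14 fell, with a median of -0.38. Of 23 glycolysis genes 6 rose and 9 fell. The glucose transporter gene Slc2a1 fell by 1.42 ± 0.06, and Phgdh, the first enzyme of serine synthesis, rose from 337 to 636 CPM to 651 to 1644 CPM (1.07 ± 0.08). Genes of cytosolic ribosomal proteins rose in 53 of 84 cases and fell in 4, with a median of 0.26. Of the 16 genes of the mitochondrial genome 15 were lower, with a median of -0.88. Their share of the counts was 2.30% to 8.01% in NaJa-D libraries and 1.19% to 4.61% in those of NaJa-G, so that the lines overlapped over both days together. Within a day they did not. The shares were 6.59% to 8.01% in NaJa-D and 4.14% to 4.61% in NaJa-G at day 1. At day 5 they were 2.30% to 2.68% and 1.19% to 1.77%. For mt-Co1, a subunit of the respiratory chain, the lowest, median and highest CPM of NaJa-D were 7831, 18332 and 35464, and NaJa-G was at 17295, 14737 and 14215 (day 1) and 5698 and 3594 (day 5) (-0.92 ± 0.09).

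**Figure D4:**
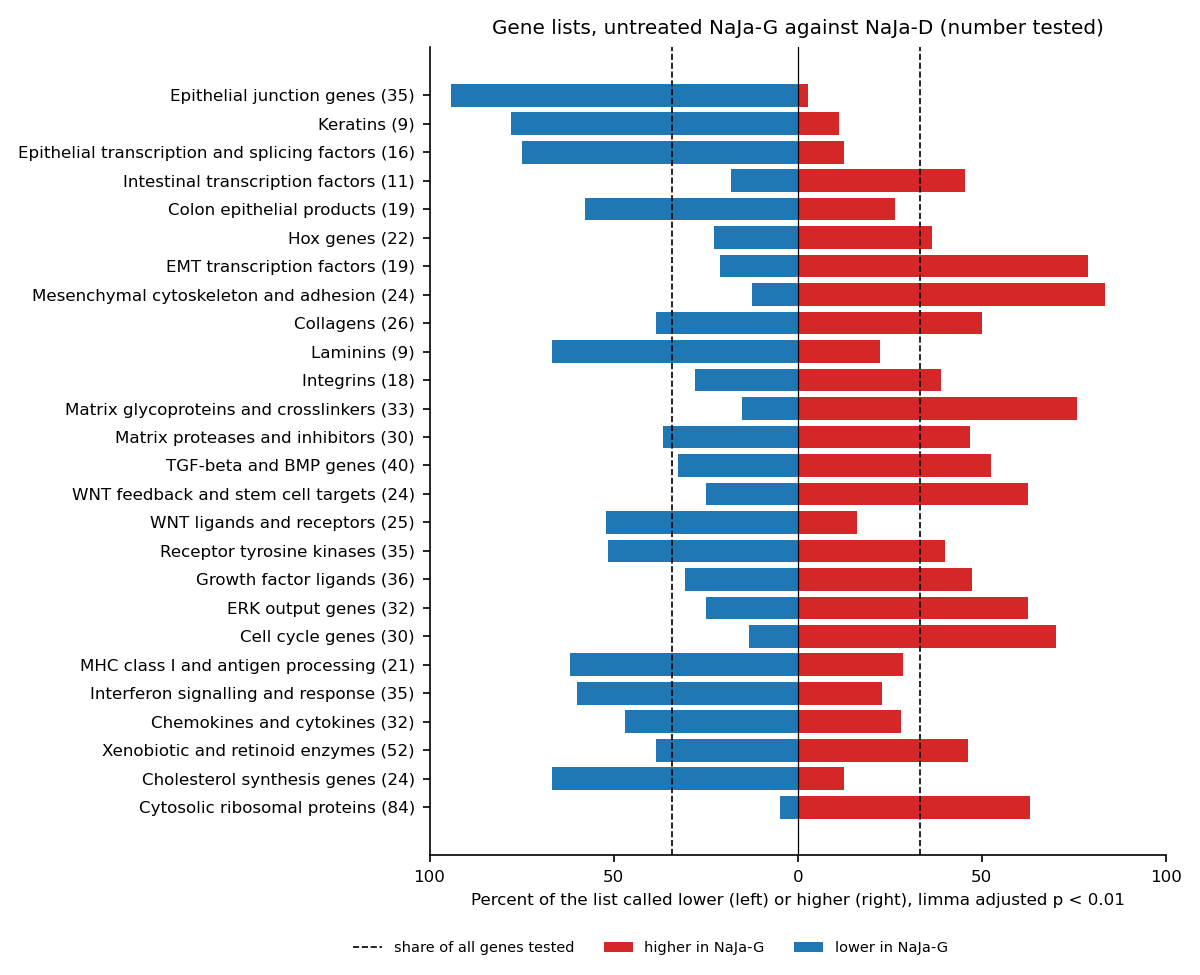
Percent of each gene list called lower (left, blue) or higher (right, red) in untreated NaJa-G against NaJa-D, with the number of genes tested in brackets and dashed lines at the shares of all genes, 34.1% lower and 33.3% higher. Cell type markers are not drawn. Of the lists drawn, junction genes reach furthest to the left, with 33 of 35 lower, and mesenchymal cytoskeleton and adhesion genes furthest to the right, with 20 of 24 higher.

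The labels of both lines were checked against marker genes. Of 10 markers of colon epithelium 9 were lower in NaJa-G and 1 was not called, with a median of -1.36, but their summed level in NaJa-G was still 2623 to 4185 CPM, against 6257 to 7551 CPM in NaJa-D. NaJa-G libraries thus held RNA of mesenchymal genes together with that of keratins and Cdh1. Hnf4a, which is not one of these markers, was also found there but was nearly absent in NaJa-D. Whether the same cells express these genes cannot be told from bulk counts. Markers of other cell types that a peritoneal lavage could hold were looked for, too. Of 8 endothelial markers only 2 were in the table, 1 of which rose, with a sum of 0.752 to 0.985 CPM in NaJa-D and 1.65 to 1.85 CPM in NaJa-G; Pecam1, Cdh5 and Tek are not in it. Of 11 fibroblast markers 7 were in the table, and 6 of them rose; their sum was 2.64 to 3.59 CPM in NaJa-D and 20.95 to 79.2 CPM in NaJa-G, and Lum, Thy1, Dpt and Pi16 are not in the table. Of 8 smooth muscle and pericyte markers 5 were in the table and 4 rose, with a sum of 1.21 to 2.25 CPM in NaJa-D and 16.6 to 42.6 CPM in NaJa-G, led by Acta2 and Cspg4 (3.29 ± 0.13). These markers moved with the mesenchymal lists, to which several of them belong, and their part in the result was not tested. Of 11 markers of macrophages and leukocytes only 3 were in the table, none of which rose, and the defining markers Ptprc and Adgre1 are not in it. The sum of the 3 was 37.3 to 47.6 CPM in NaJa-D and 24.0 to 27.9 CPM in NaJa-G. Of 10 mesothelial markers 6 were in the table and 5 fell, among them Msln, with 1219.9 to 1512 CPM in NaJa-D and 496 to 723 CPM in NaJa-G (-1.20 ± 0.09), and Bnc1 (-5.19 ± 0.25). Their sum was 2197 to 2628 CPM in NaJa-D and 1104 to 1403 CPM in NaJa-G. It includes Krt19, which is also counted as a marker of colon epithelium. It also includes Gpm6a, which had 8446 counts in the library with the conflicting label and at most 2 in the other 10. In such bulk samples, fewer cells that express a gene and less RNA of it per cell cannot be told apart.

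The fold changes also differed by chromosome. The median log2 fold change was -0.57 over the 1034 genes of chromosome 5, of which 63.0% were called lower. It was 0.44 on chromosome 3, 0.49 on X, 0.31 on 14 and 0.22 on 13, and between -0.16 and 0.10 on the other 15 chromosomes. Chromosome 5 was not uniform: in bins of 20 Mb, the median was 0.01 from 20 to 40 Mb, 0.26 from 60 to 80 Mb and -0.03 from 80 to 100 Mb, and between -0.84 and -0.68 in the other bins. On chromosome 3 all 8 bins lay between 0.40 and 0.57. Of the junction genes 3 are on chromosome 5, among them Cldn3 and Cldn4, and of the 32 on other chromosomes 30 fell, with a median of -2.91. The copy number of the chromosomes was not measured in these data, and its part in the fold changes was not tested.

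**Figure D5:**
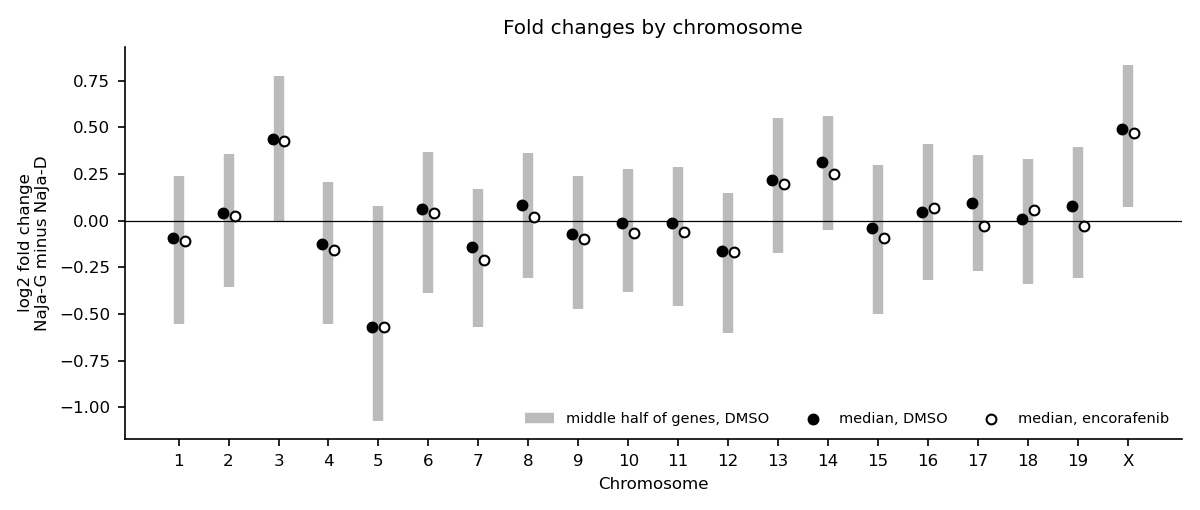
Median log2 fold change between NaJa-G and NaJa-D by chromosome in DMSO (filled) and encorafenib (open), with grey bars from the lower to the upper quartile of the genes in DMSO. The medians of chromosome 5 are -0.57 in both treatments, and those of chromosomes 3 and X are the highest.

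The line difference depended on the day in a minority of genes. The change of the line difference from day 1 to day 5 was called in 2088 genes, 14.8% of those tested, with 1267 (8.98%) more positive and 821 (5.82%) more negative at day 5. Scaling by library size only turned this split to 846 and 1639, and a fit of only the 4 groups compared called 634 genes. Without the library with the conflicting label 1472 were called, and without NaJa-G DMSO day 5 replicate 1 there were 1307. The change reached an absolute log2 value of 1 in 270 genes. At both days the same direction was called in 6310 genes and opposite directions in 112. Apcdd1, a WNT antagonist, had the largest increase among genes with a mean of at least 2 log2 CPM: NaJa-G was at 34.3, 30.7 and 29.5 (day 1) and 86.9 and 105 (day 5) and NaJa-D at 9.79 to 17.6 CPM, and the line difference went from 0.95 to 3.10. The amino acid transporter gene Slc16a10 and Enpp2, which encodes the lysophosphatidic acid enzyme autotaxin, went from 0.22 to 2.34 and from -0.14 to 1.74. The line difference of Col1a1 shrank from 5.28 to 3.13. Nupr1 and Chac1, genes of the integrated stress response, went from 2.04 to 0.33 and from -0.12 to -1.76. Of the 35 junction genes, 10 depended on the day, and their median was -2.66 at day 1 and -3.26 at day 5.

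The encorafenib libraries, 6 of each line, are not part of the DMSO contrast. They showed a line difference of the same direction in most genes called in DMSO. There 10563 genes were called, 74.9% of those tested, 5047 (35.8%) of them higher and 5516 (39.1%) lower in NaJa-G. Of the 9515 genes called in DMSO, 7669 were called in the same direction (80.6%, or 72.6% of those called in encorafenib), 450 in the opposite one and 1396 not at all. Of the 1260 genes that rose or fell by at least 2 in DMSO, 1241 were called in the same direction. Junction genes had a median of -2.43 with 32 lower, and EMT factors one of 1.58 with 15 higher. Zeb1 was higher by 5.92, Vim by 5.64 and Ptgs2 by 11.18, and Epcam was at -3.04. The ERK output genes went from 20 higher and 8 lower in DMSO to 10 higher and 17 lower, with a median of -0.38, and Spry4 was at -0.28. Cell cycle genes had 7 higher and 12 lower with a median of -0.05, and ribosomal protein genes a median of 0.00. Class I genes had 8 higher and 10 lower with a median of -0.12. Interferon genes had 10 higher and 16 lower and colon products 8 higher and 9 lower, each with a median of -0.06. Matrix glycoproteins and crosslinkers had a larger median than in DMSO, 2.78, with 31 of 33 higher. The differences between the DMSO and the encorafenib contrast were not tested here.

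The third line, NaJa-F, is given by its range over 6 DMSO libraries, as a description. Its libraries lay between the lines in Epcam (446 to 503 CPM), Cldn4 (758 to 835 CPM), Zeb1 (16.2 to 20.1 CPM) and Vim (304 to 472 CPM). NaJa-F overlapped the highest NaJa-G libraries or lay above them in Ptgs2 (385 to 583 CPM) and lay above all of them in Axl (579 to 784 CPM), and in Procr (58.9 to 78.7 CPM) it overlapped only those of day 5. It was near NaJa-D in Acta2 (0.237 to 0.644 CPM), Fbln2 (11.7 to 21.3 CPM), Col1a1 (1.38 to 1.95 CPM) and Wnt2 (0.056 to 0.178 CPM).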

How the data were processed

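RNA of mouse cell line cultures was sequenced, and the deposited table holds unnormalised counts for each gene, made by the authors from reads trimmed with Trimmomatic 0.39 and aligned with STAR 2.5.2b to GRCm38 per the labels. The counting tool, its annotation and its strand setting are not given in the sources used here. All 34 libraries were fitted in R 4.3.3 with limma 3.58.1 (voom weights, TMM factors from edgeR 4.0.16) and a mean for each of the 12 groups of line, treatment and day. The authors' methods name limma, TMM and an adjusted p below 0.01, but not voom. Benjamini-Hochberg adjustment ran over all 14107 genes, and tests were two-sided. NaJa-G was compared with NaJa-D in DMSO as the mean of both days, between days, and in encorafenib. Symbols came from GENCODE M21 for 14064 genes, and 43 had none.

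Genes were named as members of fixed lists, as genes of the engineered alleles, as the 20 highest and 20 lowest log2 fold changes among called genes without overlap and with at least 2 log2 CPM in the higher line, as the 10 largest CPM differences in each direction, as genes with at most 3 counts in one line and 10 CPM in the other, and as the 5 highest and 5 lowest changes between days at a mean of at least 2 log2 CPM; not all of them are printed. Members and lists were chosen with earlier results of these data known. On simulated data for the DMSO comparison of the lines, run on all 14107 genes, the procedure recovered 52 of 70 genes changed by 0.58, 55 of 59 changed by 1 and 71 of 71 changed by 2 on the log2 scale, and called 0 of 13907 unchanged genes. Far fewer genes were changed there than the 67.4% called in the data. The simulation therefore does not show how scaling and false calls behave where most genes differ. Between replicate libraries of a group the variance was 3.67 to 69.1 times that of counting alone, and each was kept as a separate sample. With total counts of at least 46007050 and the TMM factors, 1 count was worth 0.0131 to 0.0243 CPM. Other settings tried were DESeq2 1.42.0, the edgeR quasi-likelihood test, limma-trend, scaling by RLE or by library size, filterByExpr, the replicate number as a block, only the groups compared, either day alone, a looser limit of 0.05 on the adjusted p, a further limit of 1 on the size of the log2 fold change, and leaving out each library. The 8 motifs searched were the E-boxes CAGGTG and CACGTG, the E-box CAGCTG, the AP-1 motif TGANTCA, the TEAD motif GGAATG, the TCF motif CTTTGAT, the GATA motif GATAAG and the CDX motif TTTATG, by exact match on both strands in the first promoter listed for each gene by RefSeq.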

Additional observations from a re-analysis of the deposited data

Results flagged for a closer look

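The difference between NaJa-G and NaJa-D changed between day 1 and day 5 in 2088 genes by the test of that change in limma, which is why the following values stand out. Among genes with a mean of at least 2 log2 CPM, those that became more positive at day 5 by the most on the log2 scale were Apcdd1 by 2.15, Slc16a10 by 2.13, Nts by 1.97, Enpp2 by 1.88 and Gpr155 by 1.88. Those that became more negative by the most were Col1a1 with -2.14, Ivl with -1.81, Rasa4 with -1.71, Nupr1 with -1.71 and Chac1 with -1.64. Gpr155 was lower in NaJa-G at day 1 and higher at day 5.

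Genes of the mesenchymal and matrix lists were among those with a smaller line difference at day 5: the change was -4.30 for Acta2, -3.43 for Postn, -3.26 for Fstl1, -2.39 for Col3a1 and -1.61 for Prrx1. Low counts in NaJa-D entered these values. There Fstl1 had 0 to 3 counts at day 1 and 7 to 9 at day 5, and Prrx1 had 5 to 8 and 15 to 16. In NaJa-G, Fstl1 was at 7.24 to 7.98 CPM at day 1 and at 3.26 and 4.67 CPM at day 5. Of genes of growth factors and of the WNT pathway, the difference grew by 3.16 for Ptn, 1.46 for Tgfb2 and 1.24 for Dkk2. Rnf43, which was lower in NaJa-G, had a change of 1.08, so that its difference shrank. Of the claudins, Cldn2 had -1.86 and Cldn4 -1.03, and Dsp of the desmosome had 1.06. For Cldn2 the NaJa-D libraries were at 0.340 to 0.493 CPM at day 1 and 1.59 to 1.82 CPM at day 5. Those of NaJa-G stayed between 20.7 and 22.3 CPM. The change was -2.34 for Irf7, an interferon regulatory factor, -1.42 for the imprinted gene Plagl1 and -1.96 for Lypd6b. The day 5 mean of NaJa-G rests on 2 libraries.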

How the results depend on the processing

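The count of 9515 genes that differed in DMSO stayed within 1.5 times under edgeR (9586), DESeq2 (9682), limma-trend (9600), RLE (9476), library size (9792), the replicate block (9426), only the groups compared (8730) and an adjusted p below 0.05 (10524), and filterByExpr changed nothing. The 2088 genes that depended on the day were less stable: only the groups compared gave 634, an adjusted p below 0.05 gave 3614, and leaving out single libraries gave 1307 to 2411, the lowest without NaJa-G DMSO day 5 replicate 1. Leaving out single libraries gave 9074 to 9423 in DMSO and 10233 to 10736 in encorafenib. A further limit of 1 on the size of the log2 fold change left 2872, 270 and 3356 genes for DMSO, days and encorafenib. Library size scaling moved the median of all genes by 0.12 in DMSO and by -0.11 between days. The higher share of calls went from 49.4% to 59.9% in DMSO, and the positive share between days from 60.7% to 34.04%.

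Same-numbered libraries of different groups had correlations of their deviations from -0.272 to 0.141, over 0.1 in 2 of 15 pairs. Between the lines within a day they were 0.141, 0.0237 and 0.139 (day 1) and 0.0649 and 0.0613 (day 5). Pairs of other numbers lay there between -0.157 and 0.0917. Deviations from means of so few libraries are tied to each other, so these values do not decide whether replicate numbers pair the cultures. With the number as a block, 2027 genes depended on the day and 10523 differed in encorafenib, and no comparison left the range of 1.5 times. Of the 199 genes named, 171 kept direction and side of the threshold under all alternatives, and 6 changed sign under at least 1. At day 1 alone the log2 fold change was -0.074 for Cdh17, -0.23 for Dsp, -0.31 for Axin2 and -0.14 for Enpp2, and at day 5 alone 0.59 for Gpr155 and -0.19 for Krt18. Krt18 was also at -0.0023 with the block and between -0.061 and 0.073 without single libraries, and Cdh17 from -0.014 (without NaJa-D DMSO day 5 replicate 3) to 0.089. Braf was called under 5 of the other tools or scalings, with 0.23 to 0.34. Of 90 counts of list members called in a direction, only 40 stayed within 1.5 times under all alternatives, and 74 values moved beyond that: 50 under the further limit of 1, which by construction removes genes, 9 at day 1 alone, 7 at day 5 alone, 6 under library size scaling, 1 with only the groups compared and 1 without NaJa-G DMSO day 5 replicate 1. Ribosomal protein genes called higher went from 53 to 30 at day 5 alone, and respiratory chain genes called lower from 17 to 9 under library size scaling. The causes were not tested. A count of 0 at this depth does not exclude a low level of the gene, and no limit of detection was estimated.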

Other observations

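Among the genes named for the highest fold changes, several were at most at traces in NaJa-D. Ptn, which encodes the growth factor pleiotrophin, was at 0 to 0.0419 CPM in NaJa-D and at 2.36 to 19.1 CPM in NaJa-G. The choline transporter gene Slc5a7 was at 0 to 0.0485 CPM in NaJa-D and at 5.17 to 10.2 CPM in NaJa-G, and Stac, which encodes an adaptor of calcium channels, at 0 to 0.0235 and 4.61 to 7.54 CPM. With 0 to 2 counts of these genes in a NaJa-D library, the size of their fold changes is uncertain. The potassium channel gene Kcnj2 rose by 7.42 ± 0.25, to 10.8 to 28.4 CPM. In the other direction Pgr, the progesterone receptor gene, was at 6.16 to 16.2 CPM in NaJa-D and at 0.067 to 0.920 CPM in NaJa-G. That the libraries of the lines do not overlap in these genes was a condition for naming them.

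Of 20 imprinted genes 7 rose and 7 fell. Grb10, an adaptor that restrains insulin receptor signalling, was higher by 4.06 ± 0.49, and Plagl1 and Igf2r, which encode a zinc finger factor and a receptor that clears IGF2, had log2 fold changes of -2.47 ± 0.12 and -1.11 ± 0.05. Of 20 p53 target genes 7 rose and 6 fell, and the desmosomal target Perp was at 242 to 360.2 CPM in NaJa-D and at 43.7 to 66.0 CPM in NaJa-G. Of 77 respiratory chain subunits 30 rose and 17 fell, with a median of 0.09, of 25 forkhead genes 10 rose and 8 fell, and of 11 Klf genes 2 rose and 5 fell.

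Some genes were high in a single library. Gpm6a had 8446 counts in NaJa-D DMSO day 1 replicate 3, the library with the conflicting label, and at most 2 in the other 10 libraries. Chrdl1 had 34442 counts in NaJa-G DMSO day 5 replicate 1 and at most 4 in the others. Neither gene was called.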
